A study of Rattus norvegicus with 6 samples.

Results

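The purinergic receptors and ectonucleotidases described here are 10 genes: the ATP-gated channel genes P2rx4, P2rx5 and P2rx7, the nucleotide receptor genes P2ry1, P2ry2 and P2ry6, the ectonucleotidase genes Entpd1 and Nt5e, and the adenosine receptor genes Adora2a and Adora2b. They were taken by gene name from the deposited count table, where each matched 1 row, 10 of 33566 genes in all. RNA was sequenced from primary rat brain microvascular endothelial cells (rBMECs), the cells that line brain capillaries and form the blood–brain barrier. The cells came from SD rats (Sprague-Dawley) 18 to 22 days of age, from the cerebral cortex by the labels and the forebrain by the study's methods, were isolated with a commercial kit, and were used after 1 passage. The Hcy group (3 libraries) received homocysteine (Hcy), an amino acid of the methionine cycle that is raised in the blood in several vascular disorders, at 100 μM for 24 h, and the Veh group (3 libraries) received the ddH2O vehicle. The dose of 100 μM is that of the labels, whose treatment text also names a prepared Hcy solution of 50 μM. The study's methods likewise give a prepared solution of 50 μM for the interventions. The design text calls the 3 libraries of a group biological replicates, and whether equally numbered cultures came from the same preparation of cells was not given in the sources used here. Genotype and sex were not given in the sources used here. Both groups are cultured cells that had been through a purification step against other cell types.

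ATP released from stressed or dying cells acts on neighbouring cells through P2X receptors, which are ATP-gated cation channels that admit calcium, and through P2Y receptors, which couple to G proteins. Ectonucleotidases on the cell surface then cut ATP and ADP to AMP and AMP to adenosine, and adenosine acts on receptors of its own. In brain endothelium these receptors are known for their part in vascular tone, leukocyte adhesion and permeability of the barrier.

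P2rx4 and P2rx7 are neighbours in the genome, and the P2rx7 RNA level passed the test between Hcy and Veh while that of P2rx4 did not, so the 250 bases before each start are shown. The P2rx7 result rests on few reads, 45 in Veh and 7 in Hcy, and the gene entered the test through its Veh counts. Its call was lost with the replicate number as a block (adjusted p = 0.0712, edgeR). It was also lost when any library but Veh replicate 3 was left out. The difference between the fold changes of P2rx4 and P2rx7 was not tested. Of the 10 genes, 7 had an entry in the RefSeq promoter table for GRCr8, and P2rx5, P2ry6 and Adora2a had none. The P2rx4 window is at chr12:39523090-39523339 and the P2rx7 window at chr12:39594923-39595172, both on the minus strand. Capitals mark the letters GGGCGG on either strand (CCGCCC), the core of the GC box.

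P2rx4: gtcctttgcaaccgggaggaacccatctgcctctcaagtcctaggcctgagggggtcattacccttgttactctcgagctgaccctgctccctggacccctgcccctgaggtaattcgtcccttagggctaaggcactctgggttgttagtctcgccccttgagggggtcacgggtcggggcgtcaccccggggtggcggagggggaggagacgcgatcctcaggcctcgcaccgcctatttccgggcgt

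P2rx7: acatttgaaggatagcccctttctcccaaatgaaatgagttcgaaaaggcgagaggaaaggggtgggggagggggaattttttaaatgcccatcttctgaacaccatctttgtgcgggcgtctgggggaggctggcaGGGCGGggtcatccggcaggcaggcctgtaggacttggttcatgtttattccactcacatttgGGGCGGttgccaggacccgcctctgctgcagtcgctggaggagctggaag

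The P2rx7 window held 2 GC boxes and the P2rx4 window held 0. Among 33469 RefSeq promoter windows of the same length, 30.5% held at least 1. The P2rx4 window had a GC content of 64.0% and 15 CG pairs, and the P2rx7 window a GC content of 56.0% and 9 CG pairs, against medians of 51.2% and 5 over all windows. Of the other 5 windows, Adora2b held 4 GC boxes, P2ry2 and Nt5e held 3 each, P2ry1 held 2 and Entpd1 held 0. The letters CCAAT on either strand, found in 34.0% of all windows, occurred in the Entpd1 window (2 matches) and the Adora2b window (1 match). These matches describe the letters in the windows. Binding and methylation were not measured in these libraries.

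Libraries held 14024997 to 16764584 counted reads. A level of 3 counts, 0.178 to 0.215 CPM (counts scaled to the library size), was taken as the floor, which covers counting error only. In the principal component analysis the first component (30.5% of the variance) parted Hcy from Veh, and on the second (26.2%) Veh replicate 3 lay at 30.4, against -15.9 and -19.0 for Veh replicates 1 and 2. Of 12 endothelial marker genes, 10 were tested, and their summed level was 7822 to 9038 CPM in Veh and 9453 to 9879 CPM in Hcy, with 0 genes called and with Tek, Erg and Egfl7 below 0 in log2 fold change and the other 7 above. Cldn5 was listed at 0 in all 6 libraries, and Pecam1 was not found under that name.

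P2rx5 and P2rx7, 2 of the 10 genes, fell in Hcy, and 0 rose. P2rx7 was at or under 3 counts in every Hcy library and entered the test through its Veh counts. It was not called with the replicate number as a block (adjusted p = 0.0712, edgeR). Neither gene was called when any library but Veh replicate 3 was left out. All 10 had at least 10 counts summed over the 6 libraries and were tested with edgeR's quasi-likelihood test. A gene was called when its Benjamini-Hochberg adjusted p over all genes tested was at most 0.05 and its absolute log2 fold change at least 1. By this rule 71 of 14603 genes were called, 0.486%, and 34 of them were lower in Hcy, 0.233%. At an adjusted p of at most 0.05 alone the same 2 of the 10 genes passed, where 2.34% of all genes did. P2rx4, P2rx5, P2rx7 and Adora2a, 4 of the 10, had Hcy and Veh libraries that did not overlap, as 20.1% of all genes tested did. The fitted log2 fold change was above 0 for 4 genes and below 0 for 6, with a median of -0.15 against -0.02 over all genes tested.

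**Figure D1:**
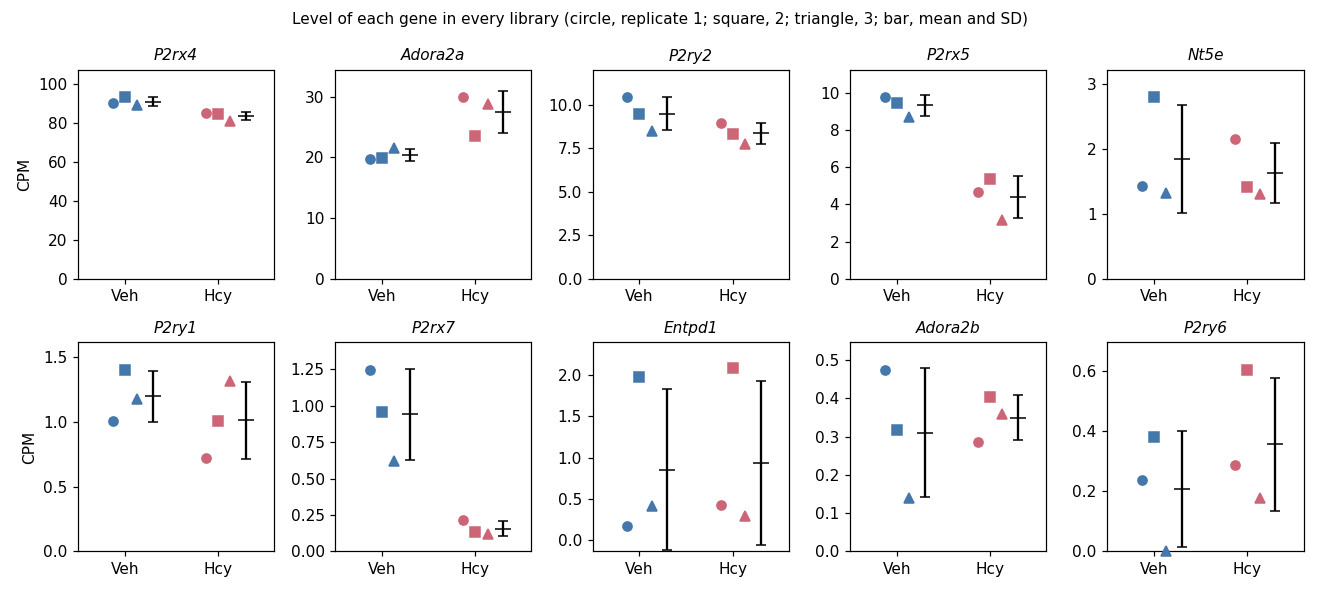
Level in CPM (vertical axes, each from its own scale) of the 10 genes in the 3 Veh (blue) and 3 Hcy (red) libraries; symbols mark the replicate number, and the bar gives the mean and SD of a group (n = 3). The 3 Hcy points of P2rx5 and of P2rx7 lie below all of their Veh points, those of Adora2a lie above, and the Entpd1 points of replicate 2 stand apart in both groups.

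P2rx5 encodes a P2X channel subunit that opens to extracellular ATP (ENSRNOG00000019208, listed on chromosome 10 from 59725398 to 59737126, plus strand). It was counted 165, 149 and 126 times in Veh replicates 1, 2 and 3 and 65, 80 and 53 times in Hcy replicates 1, 2 and 3. In CPM these are 9.79, 9.49 and 8.72 in Veh and 4.67, 5.37 and 3.16 in Hcy. Every Hcy library lay below every Veh library. The mean was 9.34 ± 0.554 CPM in Veh and 4.40 ± 1.13 CPM in Hcy (SD, n = 3 each). P2rx5 fell by 1.09 on the log2 scale (SE 0.20, 95% interval -1.55 to -0.63), 2.13-fold lower, with an adjusted p of 0.0283 in edgeR's quasi-likelihood test. Leaving out Veh replicate 3, which stood apart, gave a log2 fold change of -1.14 and an adjusted p of 0.0128. The fit without Veh replicate 3 also called more genes over all, 112 against 71 with all 6 libraries. Leaving out any other library took the adjusted p above 0.05: 0.108 without Hcy replicate 1, 0.0516 without Hcy replicate 2, 0.0825 without Hcy replicate 3, 0.107 without Veh replicate 1 and 0.0941 without Veh replicate 2. In these fits the log2 fold change was between -1.26 and -0.89, and the value without Hcy replicate 3, -0.89, was also under the fold threshold. In these RNA samples fewer cells that express a gene and less of its RNA per cell cannot be told apart.

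P2rx7 encodes the P2X channel that needs high ATP, can open a large pore and is best known from macrophages and microglia (ENSRNOG00000001296, listed on chromosome 12 from 39353613 to 39396042, minus strand). Its counts were 21, 15 and 9 in Veh replicates 1, 2 and 3 and 3, 2 and 2 in Hcy replicates 1, 2 and 3. All Hcy libraries were at or under the floor of 3 counts, and all Veh libraries were above it. The means were 0.942 ± 0.312 CPM in Veh and 0.156 ± 0.0517 CPM in Hcy (SD, n = 3 each). Summed over libraries the counts were 45 in Veh and 7 in Hcy, a Veh to Hcy ratio of 6.23 after scaling, with a 95% counting interval of 2.79 to 16.4 (exact Clopper-Pearson). The gene fell with a fitted log2 fold change of -2.56 (SE 0.54) and an adjusted p of 0.0443 in edgeR's quasi-likelihood test. The fitted size depended on the prior count and was -1.92 with a prior count of 2. The 7 Hcy counts alone would not have reached the minimum of 10, so P2rx7 entered the test through its Veh counts. Under edgeR's filterByExpr it was not tested, and with the replicate number as a block its log2 fold change was -2.52 with an adjusted p of 0.0712. Without Veh replicate 3 the log2 fold change was -2.78 and the adjusted p 0.0178. The adjusted p was above 0.05 without any other library: 0.129 without Hcy replicate 1, 0.157 without Hcy replicate 2, 0.197 without Hcy replicate 3, 0.168 without Veh replicate 1 and 0.126 without Veh replicate 2. With each of these left out in turn, the fitted value was between -2.83 and -2.30 on the log2 scale.

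Macrophage and microglia markers were low in these libraries, as P2rx7 was. Of 12 such markers 6 were tested and 0 were called, and Cx3cr1, Ptprc, C1qb and Tyrobp were at 0 in all 6 libraries. The summed level of the list was 3.06 to 4.08 CPM in Veh and 2.69 to 4.24 CPM in Hcy, so the groups overlapped. Single genes of the list differed in direction and did not pass the test. Tmem119 was counted 11, 16 and 16 times in Veh and 6, 8 and 10 times in Hcy, with no overlap in CPM (log2 fold change -0.81, adjusted p = 0.455, edgeR). Cd68 was counted 14, 20 and 8 times in Veh and 31, 17 and 19 times in Hcy (0.74, adjusted p = 0.522, edgeR). The 5 smooth muscle markers, all tested, summed to 1120.4 to 1348 CPM in Veh and 674 to 702 CPM in Hcy, a sum that was mostly Tagln (means 1071 and 582 CPM) and Acta2 (149 and 95.5 CPM). Cnn1 was called lower, and Acta2 and Tagln were lower at an adjusted p of at most 0.05 alone. Myh11 (means 1.23 CPM in Veh and 1.20 CPM in Hcy) and Des (0.457 and 0.679 CPM) were far lower than Tagln. They did not pass the test, with log2 fold changes of -0.04 (adjusted p = 0.981, edgeR) and 0.55 (adjusted p = 0.705, edgeR). Fibroblast markers summed to 57.5 to 83.9 CPM in Veh and 35.7 to 57.8 CPM in Hcy, ranges that overlapped and were nearly all Col1a1. Every Hcy library of Col1a1 itself lay below every Veh library in CPM (log2 fold change -0.52, adjusted p = 0.264, edgeR). Lum and Pdgfra had log2 fold changes of 0.53 and 0.12. Pericyte markers summed to 3.50 to 4.64 CPM in Veh and 4.66 to 7.19 CPM in Hcy, ranges that did not overlap. Pdgfrb was the largest part (log2 fold change 0.73). Cspg4, Rgs5, Abcc9 and Notch3 had log2 fold changes of 1.66, 1.26, 0.87 and 0.44, and Kcnj8 and Anpep of -0.99 and -1.09. The Hcy and Veh libraries of Cspg4, Rgs5 and Kcnj8 did not overlap. None of the fibroblast or pericyte genes tested was called. Which cells the smooth muscle, fibroblast and pericyte markers came from was not tested. Nor was the part of any of these cell types in the lower P2rx5 and P2rx7 levels. Astrocyte markers summed to 0.416 to 1.66 CPM in Veh and 0.716 to 1.01 CPM in Hcy. Oligodendrocyte markers summed to 11.3 to 11.4 CPM in Veh and 10.6 to 12.4 CPM in Hcy, mostly Mog (means 9.89 and 9.87 CPM).

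P2rx4 encodes a P2X channel that in endothelium takes part in the calcium response to blood flow (ENSRNOG00000001300, listed on chromosome 12 from 39308025 to 39325673, minus strand). It was counted 1521, 1464 and 1286 times in Veh and 1183, 1261 and 1356 times in Hcy. In CPM the Veh libraries were at 90.3, 93.3 and 89.0 and the Hcy libraries at 85.0, 84.7 and 80.9. The groups did not overlap after scaling, and the gap between them was small. The log2 fold change was -0.12 (SE 0.07, 95% interval -0.28 to 0.03), which did not pass edgeR's quasi-likelihood test (adjusted p = 0.515). In the deposited positions, 27939 bases and 0 genes lie between P2rx4 and P2rx7.

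**Figure D2:**
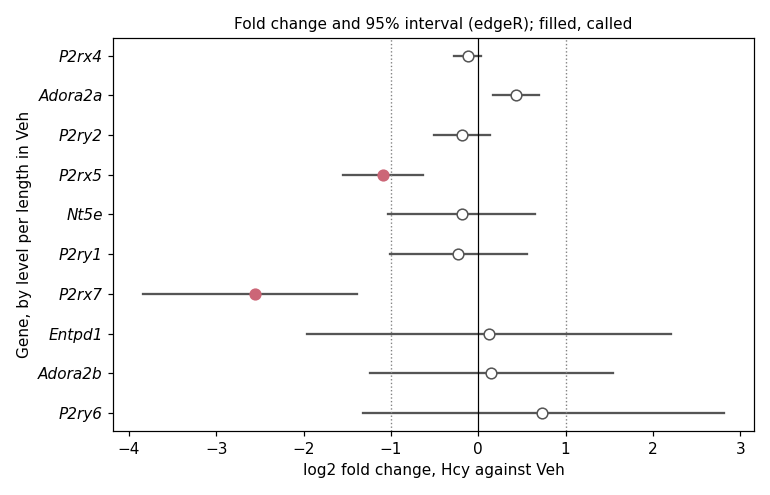
Fitted log2 fold change of Hcy against Veh (horizontal axis) with its 95% interval for each of the 10 genes, ordered from the highest to the lowest level per length in Veh; filled points were called, and dotted lines mark the fold-change threshold. P2rx5 and P2rx7 are the filled points, P2rx4 has the narrowest interval, and the intervals of P2rx7, Entpd1, Adora2b and P2ry6 span more than the distance between the dotted lines.

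The level of the P2X family was nearly all P2rx4. Per length, in RPKM (CPM divided by the gene length in kilobases), P2rx4 made up 91.4% to 92.3% of the summed level of the 7 P2X genes in Veh libraries and 94.6% to 96.3% in Hcy libraries. P2rx5 made up 7.05% to 7.72% in Veh and 2.93% to 4.68% in Hcy. P2rx7 held 0.333% to 0.651% in Veh and 0.0733% to 0.125% in Hcy. The ranges of the 2 groups did not overlap for any of these 3 genes, and the shares sum to a whole, so they are not independent of each other. Of the other P2X genes, P2rx3, a channel known from sensory neurons, was the only tested gene, at 9, 12 and 9 counts in Veh and 13, 13 and 15 in Hcy (log2 fold change 0.49, adjusted p = 0.640, edgeR). P2rx1 and P2rx2 had at most 2 counts in any library, and P2rx6 had 0 in all 6.

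None of the P2Y receptor genes tested passed the test between Hcy and Veh. P2ry2 encodes a receptor for ATP and UTP that couples to phospholipase C and calcium release in endothelium (ENSRNOG00000019283, listed on chromosome 1 from 166031272 to 166037424, minus strand). It was counted 176, 149 and 123 times in Veh and 125, 124 and 130 times in Hcy. In CPM the Veh libraries were at 10.4, 9.49 and 8.51 and the Hcy libraries at 8.98, 8.33 and 7.76, so the groups overlapped. The log2 fold change was -0.19 (SE 0.14, 95% interval -0.50 to 0.13), with an adjusted p of 0.649 in edgeR's quasi-likelihood test. P2ry2 made up 87.6% to 92.8% of the summed P2Y level per length in Veh and 87.4% to 91.1% in Hcy.

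P2ry1 encodes a receptor for ADP (ENSRNOG00000014232, listed on chromosome 2 from 151314818 to 151320319, plus strand). Its counts were 17, 22 and 17 in Veh and 10, 15 and 22 in Hcy. The groups overlapped, with means of 1.20 ± 0.197 CPM in Veh and 1.01 ± 0.297 CPM in Hcy (SD, n = 3 each). The log2 fold change was -0.23 (SE 0.35, 95% interval -1.02 to 0.56; adjusted p = 0.852, edgeR). P2ry6 encodes a receptor for UDP (ENSRNOG00000019270, listed on chromosome 1 from 165972440 to 165997751, minus strand) and lies 33520 bases from P2ry2 with 0 genes between them. Its counts were 4, 6 and 0 in Veh and 4, 9 and 3 in Hcy, at or near the floor of 3. A difference in P2ry6 was not detectable at this depth, where its log2 fold change of 0.73 had a 95% interval of -1.32 to 2.82 (adjusted p = 0.801, edgeR). It was 0.12 without Hcy replicate 2, 0.19 without Veh replicate 3 and 1.44 without Veh replicate 2. P2ry12, P2ry13 and P2ry14, known from platelets, microglia and other immune cells, were at 0 in all 6 libraries, which allows up to 3 counts in each.

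Entpd1 and Nt5e, which encode the surface enzymes CD39 and CD73, were both low. CD39 cuts ATP and ADP to AMP, and Entpd1 (ENSRNOG00000014574, listed on chromosome 1 from 259739955 to 259819494, plus strand) was counted 3, 31 and 6 times in Veh replicates 1, 2 and 3 and 6, 31 and 5 times in Hcy replicates 1, 2 and 3. Replicate 2 of each group stood apart, at 1.98 CPM in Veh and 2.08 CPM in Hcy, each at least 4.58 times every other library. The group means were 0.856 ± 0.976 CPM in Veh and 0.937 ± 0.994 CPM in Hcy (SD, n = 3 each), so the spread within a group exceeded the mean. The log2 fold change of 0.12 had a 95% interval of -1.96 to 2.21 (adjusted p = 0.975, edgeR). Its sign turned with the libraries used. It was -1.23 without Hcy replicate 2, -0.37 without Veh replicate 1, -0.19 without Veh replicate 3 and 1.65 without Veh replicate 2.

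CD73 cuts AMP to adenosine. Nt5e (ENSRNOG00000011071, listed on chromosome 8 from 95968652 to 96012696, plus strand) was counted 24, 44 and 19 times in Veh and 30, 21 and 22 times in Hcy. The groups overlapped, with means of 1.85 ± 0.830 CPM in Veh and 1.63 ± 0.460 CPM in Hcy (SD, n = 3 each). The log2 fold change was -0.19 (SE 0.37, 95% interval -1.04 to 0.65; adjusted p = 0.891, edgeR), and it was 0.24 without Veh replicate 2, the highest library.

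Among the 10 genes, Adora2a had the highest Hcy level relative to Veh of those well above the floor, and it did not pass the test. It encodes the adenosine receptor that raises cyclic AMP through the stimulatory G protein and that is known to widen vessels (ENSRNOG00000001302, listed on chromosome 20 from 14265252 to 14282873, minus strand). It was counted 332, 311 and 310 times in Veh and 417, 349 and 483 times in Hcy. In CPM the Veh libraries were at 19.7, 19.8 and 21.5 and the Hcy libraries at 29.9, 23.4 and 28.8. Every Hcy library lay above every Veh library, and Hcy replicate 2 was the closest to Veh. The log2 fold change was 0.43 (SE 0.12, 95% interval 0.17 to 0.69), 1.35-fold, with an unadjusted p of 0.00469 and an adjusted p of 0.112 in edgeR's quasi-likelihood test. The adjusted p lay between 0.0466, without Veh replicate 3, and 0.386, without Hcy replicate 3, over the alternatives tried, and the fold stayed under the threshold in each.

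Adora2b encodes the adenosine receptor of lower affinity that also couples to cyclic AMP (ENSRNOG00000002922, listed on chromosome 10 from 48569555 to 48586365, plus strand). Its counts were 8, 5 and 2 in Veh and 4, 6 and 6 in Hcy. The groups overlapped near the floor, and the log2 fold change of 0.15 had a 95% interval of -1.24 to 1.54 (adjusted p = 0.954, edgeR) and was -0.18 without Veh replicate 3. Adora2a made up 96.9% to 99.1% of the summed adenosine receptor level per length in Veh and 97.7% to 98.7% in Hcy. Adora1 and Adora3 were at 0 in all 6 libraries.

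Per length, the 10 genes spanned a wide range of levels in Veh. P2rx4 was the highest at 46.1 ± 1.11 RPKM, followed by Adora2a at 8.18 ± 0.394, P2ry2 at 5.44 ± 0.555 and P2rx5 at 3.69 ± 0.219 RPKM (SD, n = 3). None of these 4 overlapped its neighbour in the order. By their mean over the 6 libraries they lay at percentiles 86.3, 58.9, 46.0 and 35.2 of the genes tested. The other 6 were under 1 RPKM: Nt5e at 0.589 ± 0.264, P2ry1 at 0.376 ± 0.0619, P2rx7 at 0.247 ± 0.0818, Entpd1 at 0.181 ± 0.207, Adora2b at 0.168 ± 0.0911 and P2ry6 at 0.0838 ± 0.0783 RPKM. P2rx5 did not overlap Nt5e, and from Nt5e down every gene overlapped the next, so neighbours among these 6 did not differ beyond the spread of their libraries. Genes farther apart did not all overlap, as Nt5e lay above P2rx7, Adora2b and P2ry6 in every Veh library. In Hcy, P2rx5 was at 1.74 ± 0.447 RPKM, Adora2a at 11.0 ± 1.40 RPKM and P2rx7 at 0.0410 ± 0.0135 RPKM.

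**Figure D3:**
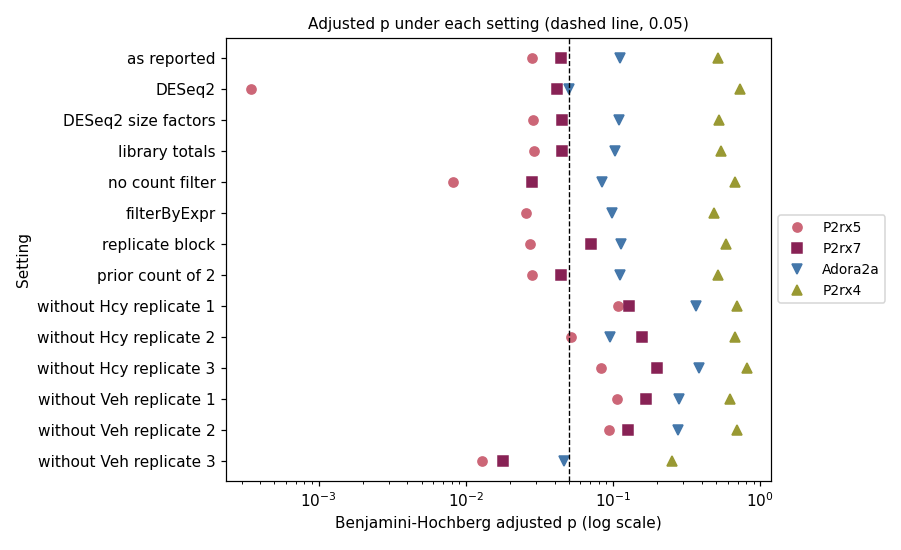
Benjamini-Hochberg adjusted p (horizontal log axis) of P2rx5, P2rx7, Adora2a and P2rx4 as reported and under 13 alternative settings; the dashed line marks 0.05. P2rx5 lies left of the line with all 6 libraries and without Veh replicate 3, and right of it when any other library is left out. P2rx7 does the same, except that it lies right of the line with the replicate block and has no value under filterByExpr.

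Of the wider purinergic system, 75 genes in 9 lists that include the 10 genes were examined, and 58 of them were tested. Besides P2rx5 and P2rx7 only Alpl was called, which makes 1 of the 48 tested genes outside the 10, where 0.486% of all genes tested were called. Alpl encodes tissue-nonspecific alkaline phosphatase, which removes phosphate from extracellular nucleotides among other substrates. It was counted 117, 69 and 78 times in Veh and 183, 167 and 171 times in Hcy, with no overlap. Alpl rose by 1.04 on the log2 scale (SE 0.19), and its adjusted p was 0.0272 in edgeR's quasi-likelihood test. The call was lost without Hcy replicate 1 (0.94, adjusted p = 0.132), Hcy replicate 2 (1.06, adjusted p = 0.0948), Hcy replicate 3 (1.12, adjusted p = 0.0825) and Veh replicate 2 (0.89, adjusted p = 0.0864).

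Among the 9 ectonucleotidase genes, of which 8 were tested and 1 was called, Enpp3 passed the adjusted p and not the fold threshold. Enpp3 encodes an enzyme that cuts ATP to AMP and pyrophosphate, and it was counted 176, 140 and 153 times in Veh and 220, 243 and 255 times in Hcy (log2 fold change 0.66, SE 0.12, adjusted p = 0.0248, edgeR). Its adjusted p was 0.0102 without Veh replicate 3 and above 0.05 without each of the others, from 0.0782 without Veh replicate 1 to 0.121 without Hcy replicate 1. Enpp2, which encodes autotaxin, had a log2 fold change of 0.16 (adjusted p = 0.554, edgeR). The median over the 8 tested genes was 0.15.

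For the handling of adenosine, 0 of the 8 tested genes were called, out of 10 listed. Slc29a1, which encodes the equilibrative nucleoside transporter of the cell membrane, was counted 116, 82 and 93 times in Veh and 142, 139 and 161 times in Hcy (log2 fold change 0.65, SE 0.15, adjusted p = 0.0692, edgeR). Ada, which encodes adenosine deaminase, was counted 1591, 1529 and 1672 times in Veh and 1205, 1134 and 1264 times in Hcy (log2 fold change -0.37, SE 0.10, adjusted p = 0.114, edgeR). Neither gene's groups overlapped, and neither passed edgeR's test with all libraries. The adjusted p from DESeq2 was 0.0333 for Slc29a1 and 0.0301 for Ada, and that of Slc29a1 was 0.0387 without Veh replicate 3 in edgeR, with the fold under the threshold each time. Pnp, which encodes purine nucleoside phosphorylase, had a log2 fold change of 0.16 (adjusted p = 0.488, edgeR), and of 0.25 without Veh replicate 3 (adjusted p = 0.0381).

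Of the 7 genes of ATP release, 4 were tested and 0 called. Gja1, which encodes connexin 43, had the smallest p among them, at -0.28 on the log2 scale (adjusted p = 0.152, edgeR, and 0.00585 without Veh replicate 3), followed by Panx1, which encodes a large-pore channel (0.27, adjusted p = 0.659), and Slc17a9, which encodes the vesicular nucleotide transporter (0.33, adjusted p = 0.791). Of the 8 genes of the inflammasome that P2X7 is known to trigger, 6 were tested and 0 called, with 1 fold change above 0 and 5 below. Nlrp3, its sensor, had 4, 3 and 5 counts in Veh and 0, 2 and 2 in Hcy (log2 fold change -1.47, adjusted p = 0.535, edgeR), all near the floor. Txnip and Nek7, which encode binding partners of the sensor, had log2 fold changes of 0.28 (adjusted p = 0.144) and -0.29 (adjusted p = 0.543, and 0.0291 without Veh replicate 3) in edgeR's test. Il1b and Il18, the cytokine genes of this pathway, were at 0 in all 6 libraries.

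The 4 intracellular Entpd genes, which encode nucleotidases of the secretory pathway and lysosome, were all tested and 0 were called, with log2 fold changes of 0.04 for Entpd5, -0.32 for Entpd6 and 0.18 for Entpd7 (adjusted p = 0.920, 0.579 and 0.926, edgeR). The Entpd5 value was -0.02 without Veh replicate 3, and the Entpd7 value was -0.08 without Hcy replicate 2 and -0.15 without Veh replicate 3. Entpd7 had more than 1 row of that name, and the row with the most counts was used. Among the 18 genes of G proteins and effectors downstream of P2Y and adenosine receptors, all were tested and 0 called, 11 with a fold change above 0 and 7 below, with a median of 0.03. The 3 with the smallest p were Adcy3, an adenylyl cyclase gene (0.48, adjusted p = 0.455), Plcb2 (2.01, adjusted p = 0.458, at most 5 counts in any library) and Plcb1 (0.73, adjusted p = 0.523), the last 2 encoding phospholipases C, all from edgeR's test. In the P2Y list, P2ry10, a receptor gene known from lymphocytes, had 0, 3 and 1 counts in Veh and 4, 3 and 7 in Hcy (log2 fold change 1.74, adjusted p = 0.478, edgeR), and its fold change ran from 1.16 without Veh replicate 1 to 2.95 without Veh replicate 2. Over all 58 tested genes of the 9 lists, 33 fold changes were above 0 and 25 below, with a median of 0.04 against -0.02 over all genes tested.

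**Figure D4:**
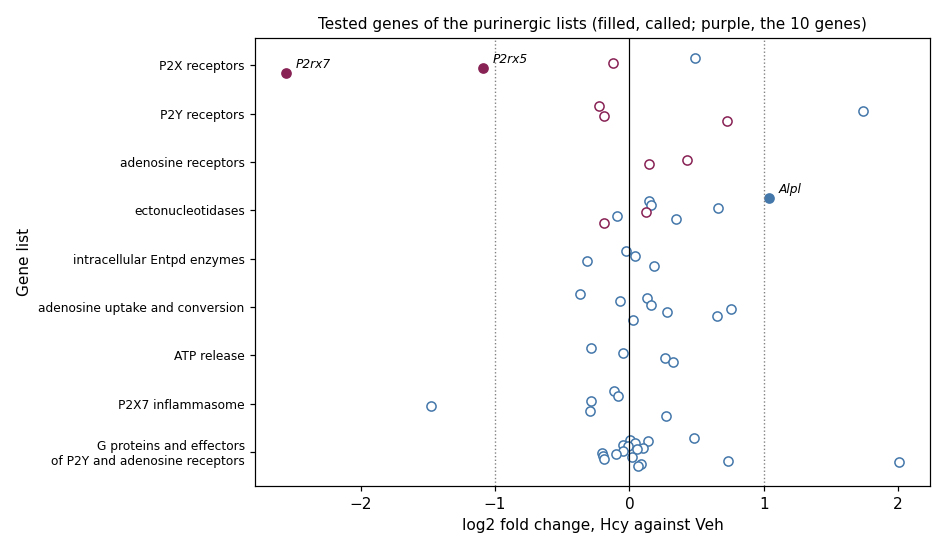
Fitted log2 fold change of Hcy against Veh (horizontal axis) for each tested gene of the 9 purinergic lists (vertical axis); purple marks the 10 genes, blue the others, filled points were called, and dotted lines mark the fold-change threshold. P2rx5 and P2rx7 are the only called points left of 0 and Alpl is the only one right of it.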

How the data were processed

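Poly(A) RNA of 6 rBMEC cultures was sequenced. The table that the authors deposited holds unnormalized counts for each gene and library beside the gene's position and length. The submitters' processing notes name fastp, HISAT2 2.2.1, StringTie 2.2.3, Cufflinks, featureCounts 2.0.6 and DESeq2 1.42.0, and the builds mRatBN7.2 and rn7. The strand setting of the counting was not given in the sources used here, and 0 genes overlap any of the 10 in the deposited positions. The table names no build. Its positions reach 282724300 on chromosome 1, beyond the highest RefSeq GRCr8 gene end of 270492571, so they were printed as listed and kept apart from GRCr8. They were not checked against the named builds mRatBN7.2 and rn7, and should not be read as positions of either. A second deposited table holds the authors' own comparison (normalized values, fold changes and p-values) and was not used. No sample column was left unmapped (0).

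The tools were edgeR 4.0.16, with limma 3.58.1, and DESeq2 1.42.0 in R 4.3.3. The 14603 genes whose counts reached a sum of 10 over all libraries were tested. Their libraries were scaled by TMM (factors 0.977 to 1.02). The test was the quasi-likelihood test of edgeR on the factor Hcy or Veh alone, run across all these genes and tested on simulated data first, and p-values were adjusted by Benjamini-Hochberg over them. Genes were called at an adjusted p up to 0.05 where the log2 fold change was 1 or more in size, as in the study's methods, which name DESeq2. CPM values are TMM-scaled, and RPKM divides them by the deposited gene length. The genes named were all 10, every called gene of the 9 lists, and the 3 tested genes with the smallest p in each list besides the 10. Lists and genes were chosen with earlier results of these data known. Promoter windows come from RefSeq GRCr8.

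The alternatives tried were no count filter, filterByExpr, DESeq2's test, its size factors within edgeR, unscaled library totals, a block for the replicate number, a prior count of 2, calls by adjusted p alone or by unadjusted p with the fold, and each library left out in turn.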

Additional observations from a re-analysis of the deposited data

How the results depend on the processing

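The 2 calls among the 10 genes (P2rx5 and P2rx7) stayed 2 with DESeq2, DESeq2's size factors, library totals and no count filter. The count was 1 under filterByExpr, where P2rx7 was not tested. With 1 library left out it was 2 without Veh replicate 3 and 0 without each of the others. Of the 75 listed genes 3 were called. With 1 library left out this was 3 without Veh replicate 3, 1 without Veh replicate 1 and 0 without each of the others. Over all genes 71 were called, against 109 with no count filter, 341 with no fold-change threshold, 374 with unadjusted p and 39 to 112 with 1 library left out. The 112 came without Veh replicate 3, and leaving out any other library gave 39 to 60. The cause of these differences was not tested beyond the genes or samples each setting adds or removes. With 1 library left out, log2 fold changes that changed sign ran from -1.23 to 1.65 for Entpd1, -0.44 to 0.24 for Nt5e, -0.18 to 0.59 for Adora2b, -0.023 to 0.073 for Entpd5 and -0.15 to 0.86 for Entpd7. Of 380 single-gene values under an alternative, for 30 genes, 357 kept their direction and their call or lack of one, 15 lost the call and 8 changed sign. The lost calls were 5 of 13 values for P2rx5, 6 of 12 for P2rx7 and 4 of 13 for Alpl. The other genes had no call to lose, so the 357 say little about how firm the calls are. The adjusted p alone crossed 0.05 upward for Enpp3 in 5 fits, and downward for Slc29a1 in 2 and for Adora2a, Ada, Pnp, Gja1 and Nek7 in 1 each. The order of the 10 genes by level was unchanged (10 of 10) by CPM and by library totals. Replicate numbers 1 to 3 occur in both groups. Deviations of same-numbered libraries correlated at 0.0237, 0.166 and 0.0581. Hcy replicates 2 and 3 correlated best with the Veh library of their own number, and Hcy replicate 1 with Veh replicate 3 (0.129). Not every same-numbered pair was over 0.1, the cut used here, so the block was kept as an alternative. These values do not settle whether the numbers pair. A few genes were high in both libraries of a number (given among the other observations), and what equally numbered libraries share was not tested. With the replicate number as a block, 1 of the 10 genes was called, P2rx7 having an adjusted p of 0.0712 in edgeR's test, and 82 genes over all. P2ry6 and Adora2b had at most 9 counts in any library, which limits what could be detected in them.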

Other observations

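Entpd1 was high in replicate 2 of both groups, and other genes were searched for this after its values were seen. Genes were counted when both libraries of a number were at 1 CPM or more and over 2 times every other library. This held for 3 genes in number 1, 6 in number 2 and 2 in number 3. The 6 of number 2 were Entpd1, Tbcb, Casp6, Lnpep, Slc7a2 and AC141521.1. Casp6, which encodes an executioner caspase, was at 3.63 CPM in Veh replicate 2 and 3.16 CPM in Hcy replicate 2, and at most 0.554 CPM in the other 4 libraries. AC141521.1 was counted 167 and 171 times in the 2 libraries and at most 4 times in any other. The 3 of number 1 were Fam50a, Rmnd5b and LOC100125368, and the 2 of number 3 were Uchl3 and LOC100912498. Uchl3, a ubiquitin hydrolase gene, was at 19.4 CPM in Veh replicate 3 and 26.4 CPM in Hcy replicate 3, against 2.82 to 3.32 CPM in the other 4 libraries. These values belong to no comparison of Hcy with Veh, and what the libraries of a number share was not tested.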
